A study of Mus musculus with 6 samples.

Results

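Glycolysis and the response to low oxygen were followed through 38 genes of the mouse lung, a list of gene names that no threshold on their values made, though results of these data were known when it was drawn up, in RNA-seq of lungs whose epithelial Cre targets both alleles of Sin3a or 1 of them. They are the enzymes from hexokinase to lactate dehydrogenase with their isoenzymes, the carriers that bring in glucose and export lactate, the subunits of the hypoxia-inducible factors (HIF) with 2 of their prolyl hydroxylases, and a set of genes known to be induced by HIF. All 38 were found among the 24341 genes measured, and 36 reached the mean of 1 FPKM (fragments per kilobase of transcript, scaled by the mapped fragments of the library) that was required for a test. Epas1 and Car9 stayed under it. In all, 12742 genes were tested.

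Lungs had been dissected from C57BL/6 embryos at E12.5. The genotype was Shh-Cre;Sin3a flox/+ in the 3 control libraries and Shh-Cre;Sin3a flox/flox in the 3 mutant libraries. Every library thus carried Shh-Cre and at least 1 floxed Sin3a allele, and each control kept an allele that Cre cannot delete. SIN3A is the scaffold of a histone deacetylase corepressor complex, and Shh-Cre acts in the epithelium of the early lung, whereas the RNA came from whole lungs with mesenchyme, vessels and blood. The comparison asks which transcripts differ between the genotypes. The labels do not say that the libraries of a group came from separate embryos or litters, so p-values measure the spread between these samples, which may be technical in part. In such bulk samples, a change in the number of cells of a type and a change in RNA per cell cannot be told apart.

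Oxygen controls the HIF proteins after they are made. Prolyl hydroxylases use oxygen to mark HIF1A and EPAS1, the VHL ubiquitin ligase then leads them to degradation, and in low oxygen they escape, pair with ARNT and bind a short core motif near genes for glucose uptake, glycolysis and blood vessel growth. Transcript levels of Hif1a therefore need not follow the activity of its protein. Embryonic tissues, the lung among them, grow at low oxygen and use glycolysis at a high rate.

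Absolute depth is unknown from FPKM, and depth estimated from low values, relative to control library 1, lay between 0.50 and 1.28. The least depth was found in control library 3 (0.53) and mutant library 1 (0.50), with 7829 and 7837 genes at the floor of 0.01 FPKM against 7041 to 7287 in the other libraries. Control library 2 and mutant library 1 held high Y-linked transcripts, so each group had 1 library with a male pattern. Sin3a itself measured 19.5, 18.6 and 18.6 FPKM in the controls and 18.8, 16.3 and 18.8 FPKM in the mutants. This sum over all exons and all lung cells does not check the genotype labels. Epithelial markers were found in all libraries, but their summed FPKM was 192 to 234 in controls and 50.5 to 65.5 in mutants.

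The core of the HIF binding motif was looked for in the DNA just before the start of each member. Windows of 250 bases upstream of RefSeq transcript starts (GRCm38.p6) were available for 35 of the 38 members. Epas1, Slc2a3 and Ndrg1 had no entry. ACGTG, on either strand (CACGT when read on the other), was found for 20 of the 35 members at 1 start or more (57.1%), against 4998 of 27025 genes with a window (18.5%). Counted by window it was in 23 of 51 member windows (45.1%) and in 5444 of all 32851 (16.6%). CACGTG holds the motif on both strands and counts as 2 matches, and windows of neighbouring starts of a gene can overlap. GCGTG, searched in the same way, was in 28 of 51 member windows (54.9%) and 28.2% of all windows. These matches describe the letters only, and no binding was measured. The genes set against the members were not matched to them for GC content of the window or number of starts. HIF motifs are among the reasons such genes are known as hypoxia targets, so these shares are no independent evidence about the mutant.

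Printed are windows of 5 of the members that had a match and whose groups did not overlap. Pfkfb3, Slc2a1 and Ankrd37 were higher in each mutant library than in any control, and Ldha and Pgk1 were lower in each. Of these 5, only Pfkfb3 passed the test described below. The windows run 5′ to 3′ on the strand of the gene and end on the base before the start, and the capitals mark ACGTG or CACGT. Pfkfb3 has both of its starts (chr2:11553930-11554179 and chr2:11502091-11502340, minus strand). Slc2a1 (chr4:119108495-119108744, plus strand), Ankrd37 (chr8:45999851-46000100, minus strand), Ldha at its first start (chr7:46845554-46845803, plus strand) and Pgk1 (chrX:106186850-106187099, plus strand) follow.
Pfkfb3, first start: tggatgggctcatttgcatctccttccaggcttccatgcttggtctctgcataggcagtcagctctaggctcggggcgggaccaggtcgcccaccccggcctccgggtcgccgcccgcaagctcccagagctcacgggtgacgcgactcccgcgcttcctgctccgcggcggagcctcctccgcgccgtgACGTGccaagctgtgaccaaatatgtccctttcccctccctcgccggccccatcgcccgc
Pfkfb3, second start: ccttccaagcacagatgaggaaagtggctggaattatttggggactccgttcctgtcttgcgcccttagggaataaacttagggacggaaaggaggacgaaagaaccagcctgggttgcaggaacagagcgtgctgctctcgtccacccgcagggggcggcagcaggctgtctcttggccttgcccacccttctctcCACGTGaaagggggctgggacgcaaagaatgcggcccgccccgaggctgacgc
Slc2a1: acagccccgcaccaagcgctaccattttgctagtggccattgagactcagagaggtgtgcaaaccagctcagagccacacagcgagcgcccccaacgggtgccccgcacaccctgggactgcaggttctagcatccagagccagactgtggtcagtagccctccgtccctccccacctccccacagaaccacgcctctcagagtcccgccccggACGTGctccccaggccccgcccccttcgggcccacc
Ankrd37: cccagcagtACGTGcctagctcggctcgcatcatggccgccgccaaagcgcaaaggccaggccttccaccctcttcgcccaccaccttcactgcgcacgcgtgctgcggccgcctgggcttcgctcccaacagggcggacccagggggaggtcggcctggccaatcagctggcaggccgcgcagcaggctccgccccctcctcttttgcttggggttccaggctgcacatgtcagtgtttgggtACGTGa
Ldha: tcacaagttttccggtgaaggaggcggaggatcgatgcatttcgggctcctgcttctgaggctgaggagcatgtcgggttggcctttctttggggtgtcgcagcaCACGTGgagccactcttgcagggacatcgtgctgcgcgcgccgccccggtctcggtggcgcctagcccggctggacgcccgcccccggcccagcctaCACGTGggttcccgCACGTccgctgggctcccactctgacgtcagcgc
Pgk1: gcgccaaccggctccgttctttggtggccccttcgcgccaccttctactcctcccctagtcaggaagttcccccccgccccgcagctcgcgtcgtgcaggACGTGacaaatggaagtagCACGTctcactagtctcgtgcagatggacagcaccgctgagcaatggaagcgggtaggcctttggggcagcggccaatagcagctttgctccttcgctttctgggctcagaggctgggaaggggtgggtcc

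The window of the first Ldha start held 5 matches, including CACGTG at 2 places, whereas its second start (not printed) held 0, and those of Ankrd37 and Pgk1 held 2 each. The first start of Pfkfb3 and that of Slc2a1 had 1 match each, and the second start of Pfkfb3 held CACGTG. The printed windows were chosen among those with a match. Egln3 and Pfkm (higher in the mutant) and Hk2 and Pgam1 (lower) also had a match and groups that did not overlap, and are not printed. Of other members whose groups did not overlap, Adm, Arnt, Kdm3a, Eno2 and Pfkfb4 (higher in the mutant) and Gapdh (lower) had 0 matches at any start.

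Transcripts of a glucose transporter, of a glycolytic regulator and of a hypoxia-induced gene rose in the mutant, and the other members did not pass the test. Slc2a3, which encodes the high-affinity glucose transporter GLUT3, rose 3.41-fold, Pfkfb3, whose product makes the fructose bisphosphate that activates phosphofructokinase, rose 1.90-fold, and Ndrg1, a gene induced by hypoxia and by differentiation, rose 1.92-fold. They were the 3 members of the 36 tested that limma called at an adjusted p under 0.05, and no member was called lower. Of all genes tested, 3.34% were called, 1.71% higher and 1.63% lower, so 3 of 36 lies above the background by few genes. At an unadjusted p under 0.05 stood 14 members, 11 higher and 3 lower, where 23.0% of all genes did. The groups did not overlap for 17 members, 12 higher and 5 lower in the mutant, against 29.5% of all genes, 14.9% higher and 14.6% lower. The median log2 change was 0.07 over the members and -0.01 over all genes. A positive change was found for 23 of the 36 members and for 6209 of all 12742 genes. Folds are ratios of mean FPKM, and log2 changes are of FPKM + 1, which understates the change of genes at low FPKM. Without the filter on low values, 1 of the 38 members was called (Ankrd37) and Slc2a3, Pfkfb3 and Ndrg1 missed the threshold (adjusted p = 0.061, 0.063 and 0.060), and without the shallow control library 3 and mutant library 1 together 0 of 36 were called. Removal of globin and small RNA genes with rescaling shifted the median of all genes to 0.11 and that of the members to 0.18. Then 6 members were called higher, where 841 of all 12621 genes were, and 30 of 36 had a positive change. With that shift the small negative changes of Hif1a, Egln1, Pgam1, Ldhb, Aldoa, Ero1l and P4ha2 turned positive.

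**Figure D1:**
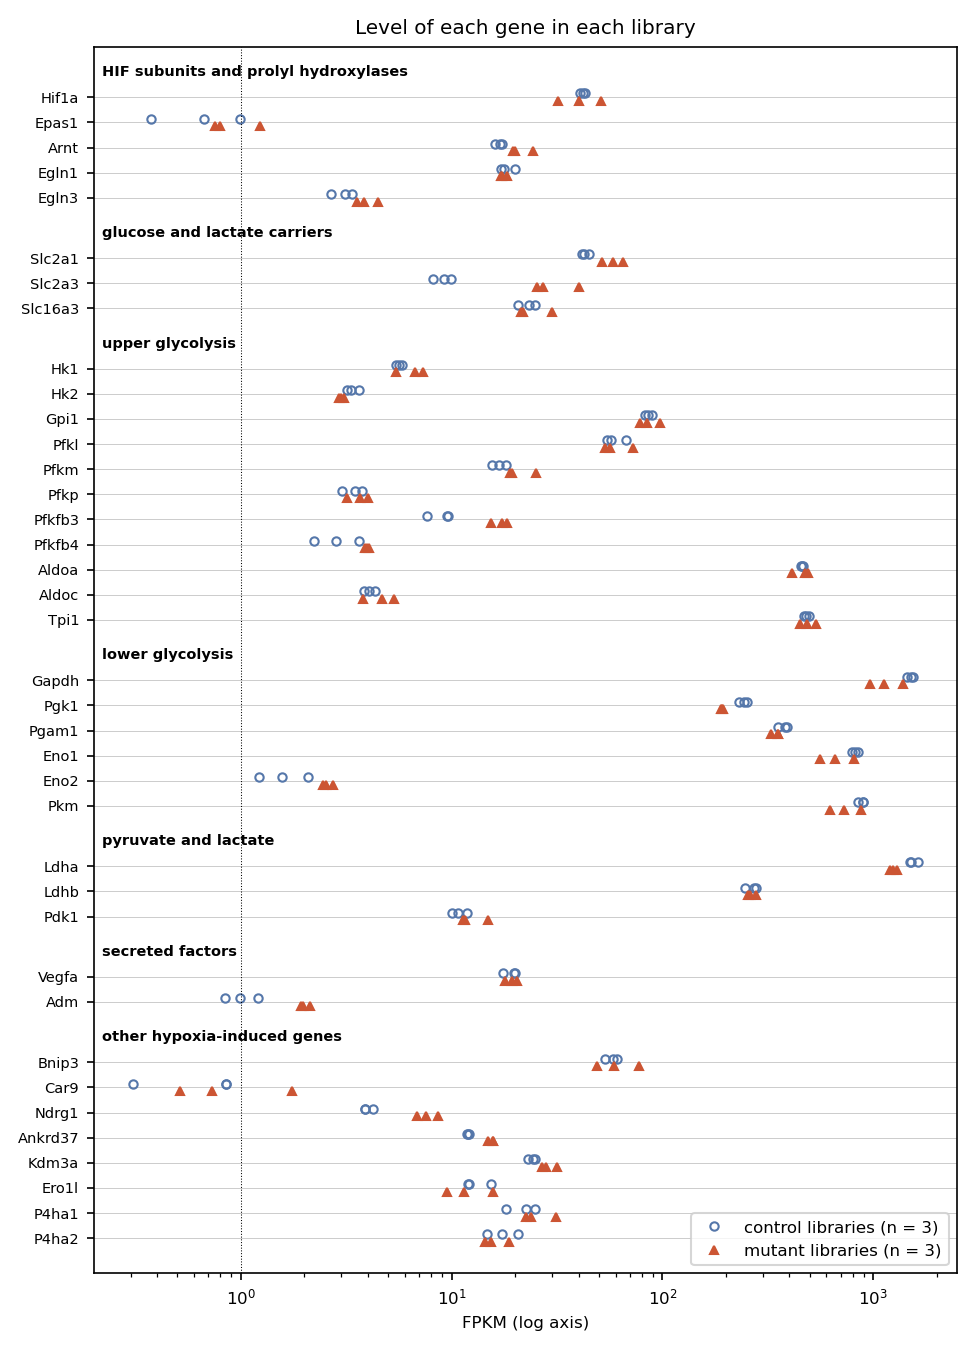
Level of each of the 38 genes in each library, in FPKM on a log axis, with open circles for the 3 control libraries and triangles for the 3 mutant libraries; the dotted line marks 1 FPKM. Levels run from under 1 FPKM for Epas1, Car9 and Adm in some libraries to 1626 FPKM for Ldha, and the clearest separation of the groups is that of Slc2a3.

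**Figure D2:**
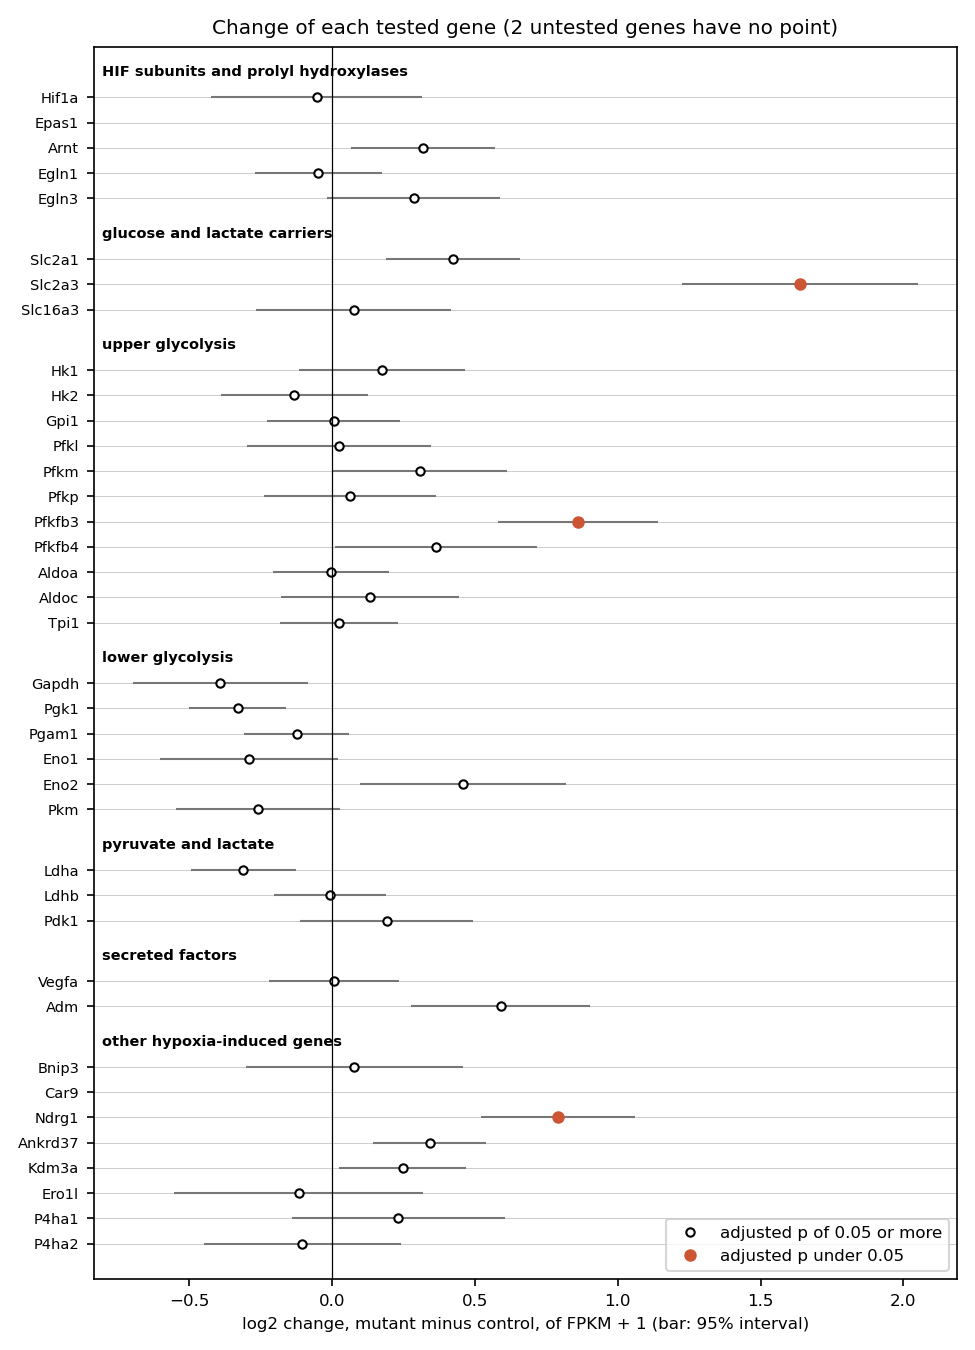
Change of the 36 tested genes, mutant minus control, on the log2 scale of FPKM + 1, with 95% intervals from limma (3 libraries per group). Filled points, Slc2a3, Pfkfb3 and Ndrg1, have an adjusted p under 0.05; 5 of the 6 genes of lower glycolysis lie left of 0.

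Of the HIF subunits and their prolyl hydroxylases 0 of 4 tested members were called, and 1 had an unadjusted p under 0.05 (Arnt). Hif1a, on chromosome 12 from 73907867 to 73947530 (GRCm38), measured 40.6, 42.9 and 42.0 FPKM in control libraries 1 to 3 and 50.9, 40.1 and 31.9 FPKM in mutant libraries 1 to 3. The mutant libraries lay on both sides of the controls and spread more widely, and limma gave a log2 change of -0.05 (SE 0.16, 3 libraries per group, adjusted p = 0.88). Its 95% interval ran from -0.42 to 0.32.

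Epas1, the HIF subunit best known from endothelium, was near the limit of measurement at 0.989, 0.665 and 0.374 FPKM in controls and 0.756, 1.23 and 0.794 FPKM in mutants. The groups overlapped, and the lowest value was that of the shallow control library 3. Arnt, the shared partner of both subunits, measured 17.2, 16.1 and 16.9 FPKM in controls and 24.2, 19.5 and 19.9 FPKM in mutants. All mutant libraries were above all controls, by a log2 change of 0.32 (SE 0.11, adjusted p = 0.14).

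Egln1, the main oxygen-sensing prolyl hydroxylase, measured 17.1, 17.7 and 20.0 FPKM against 18.3, 17.3 and 17.1 FPKM in mutants, and the groups overlapped (log2 change -0.05, adjusted p = 0.80). Egln3, a prolyl hydroxylase that HIF itself induces, measured 3.37, 2.69 and 3.13 FPKM in controls and 4.47, 3.55 and 3.83 FPKM in mutants. Its groups did not overlap, with a log2 change of 0.28 (SE 0.13, adjusted p = 0.24).

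The glucose carriers held the largest change of all members. Slc2a3, on chromosome 6 from 122727809 to 122742745, measured 8.15, 9.19 and 9.90 FPKM in the controls and 25.5, 27.0 and 40.3 FPKM in the mutants. Every mutant library was more than 15 FPKM above every control, and mutant library 3 was the highest. The log2 change was 1.64 (SE 0.18, 95% interval 1.23 to 2.05, adjusted p = 0.0065). Over 18 alternative settings the change ran from 1.44 to 1.82 and the adjusted p from 0.0021 to 0.061. It passed the threshold in 15 of them and missed it without the filter on low values (0.061), without control library 1 (0.051) and without control library 3 and mutant library 1 together (0.056).

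Slc2a3 is also made by neurons, platelets and leukocytes. Summed FPKM of 7 neuron markers was 17.2 to 44.1 in controls and 18.1 to 30.1 in mutants, and that of 4 platelet markers was 129 to 178 and 113 to 150, so in both lists the groups overlapped. Summed FPKM of 8 macrophage and leukocyte markers was 164 to 218 in controls and 281 to 400 in mutants, with all 8 higher in the mutant mean and Cx3cr1 and Tyrobp called. None of the markers of these lists was at the floor in all libraries. The part of these cells in the Slc2a3 result was not tested.

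Slc2a1, which encodes GLUT1, the glucose transporter of most embryonic cells and of red cells, measured 42.6, 44.7 and 41.7 FPKM in controls and 58.0, 51.8 and 64.8 FPKM in mutants. It was higher in all mutant libraries than in all controls, by a log2 change of 0.42 (SE 0.10, 95% interval 0.19 to 0.66), and missed the threshold (adjusted p = 0.066). Summed FPKM of the red cell markers, most of it from Hbb-y, was 22981 to 45407 in controls and 14621 to 19656 in mutants. The part of red cells in the Slc2a1 values was not tested. Slc16a3, the lactate and proton exporter MCT4, measured 20.6, 25.0 and 23.2 FPKM in controls and 21.9, 21.4 and 30.0 FPKM in mutants. The groups overlapped (log2 change 0.08, adjusted p = 0.80).

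**Figure D3:**
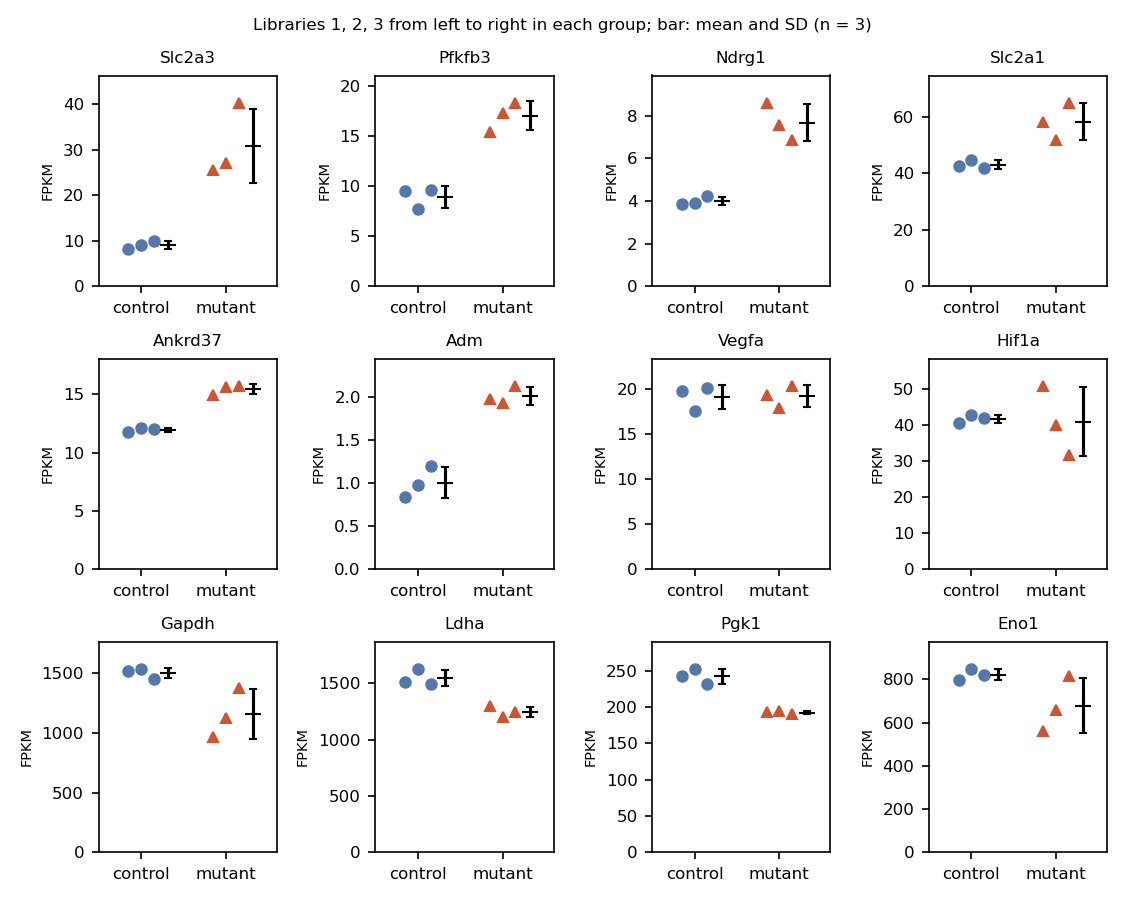
FPKM of 12 genes in each library on linear axes from 0, with libraries 1, 2 and 3 from left to right in each group and bars for the mean and SD (n = 3 per group). Slc2a3, Pfkfb3 and Ndrg1 are higher in each mutant library, Vegfa overlaps between the groups, and mutant library 3 is nearest the controls for Gapdh and Eno1.

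In the upper part of glycolysis, from hexokinase to triose phosphate isomerase, the groups did not overlap for 4 of 11 tested members, against 29.5% of all genes. Of the 11, 1 was called (3.34% of all genes were), the regulator Pfkfb3. It lies on chromosome 2 from 11471431 to 11553929 and measured 9.54, 7.67 and 9.60 FPKM in controls and 15.4, 17.3 and 18.3 FPKM in mutants. All mutant libraries were above all controls. The log2 change was 0.86 (SE 0.12, 95% interval 0.58 to 1.14, adjusted p = 0.018). The call was lost without control library 1, 2 or 3 or without mutant library 2, with adjusted p-values from 0.072 to 0.11, and held without mutant library 1 or 3. Over the 18 alternatives its adjusted p ran from 0.0073 to 0.11.

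Pfkfb4, its relative, measured 2.23, 3.63 and 2.82 FPKM in controls and 3.87, 3.95 and 4.06 FPKM in mutants. It too was higher in all mutant libraries, by a log2 change of 0.36 (SE 0.15, adjusted p = 0.21). Phosphofructokinase, the enzyme that these regulators act on, has 3 genes. Pfkm, the muscle form, measured 18.2, 16.8 and 15.5 FPKM in controls and 18.9, 19.4 and 25.2 FPKM in mutants, without overlap (log2 change 0.31, adjusted p = 0.21). The liver form Pfkl, at 59.5 ± 6.87 FPKM (control) and 60.8 ± 10.1 FPKM (mutant; SD, n = 3), and the platelet form Pfkp, at 3.42 ± 0.379 and 3.62 ± 0.422 FPKM, overlapped between the groups.

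The hexokinases, which trap glucose in the cell, were low in these lungs. Hk1 measured 5.60, 5.80 and 5.44 FPKM in controls and 5.46, 6.73 and 7.34 FPKM in mutants, with overlap (log2 change 0.18, adjusted p = 0.44). Hk2, the form that HIF induces, measured 3.20, 3.63 and 3.34 FPKM in controls and 3.08, 2.94 and 2.99 FPKM in mutants. The mutant libraries were all lower, by a log2 change of -0.13 (SE 0.11, adjusted p = 0.51).

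Isomerases and aldolases had nearly equal means in both groups. Gpi1, the glucose phosphate isomerase, averaged 85.9 ± 3.56 FPKM in controls, against 86.4 ± 9.51 FPKM in the mutant (SD, n = 3), and its log2 change had a 95% interval from -0.23 to 0.24. Aldoa, the main aldolase, averaged 458.5 ± 5.91 and 458.3 ± 39.5 FPKM (interval -0.21 to 0.20). Tpi1, triose phosphate isomerase, averaged 480.0 ± 13.0 and 489 ± 44.5 FPKM (interval -0.18 to 0.23). Aldoc, the brain aldolase, stood at 4.07 ± 0.234 and 4.59 ± 0.767 FPKM (adjusted p = 0.59). For all 4 genes the groups overlapped and the mutant libraries spread more than the controls.

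In lower glycolysis, where triose is oxidised and ATP is made, most members had lower values in the mutant. Of its 6 members 5 had a negative change (4 after the rescaling, without Pgam1) and 0 were called, with a median log2 change of -0.28. At an unadjusted p under 0.05 stood Gapdh and Pgk1 as lower and Eno2 as higher. Gapdh, glyceraldehyde phosphate dehydrogenase, measured 1517, 1535 and 1451 FPKM in controls and 964, 1124 and 1380 FPKM in mutants. Each mutant library was lower than every control, with mutant library 1 the lowest and mutant library 3 close to the controls (log2 change -0.39, SE 0.13, adjusted p = 0.14).

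Pgk1, phosphoglycerate kinase, measured 242.5, 252 and 231.5 FPKM in controls and 193, 194 and 189.9 FPKM in mutants. These groups were tight and apart, and the log2 change of -0.33 (SE 0.07, 95% interval -0.50 to -0.16) came just short of the threshold (adjusted p = 0.057). Pgam1, phosphoglycerate mutase, measured 353, 382 and 389 FPKM in controls and 351, 327.5 and 351.5 FPKM in mutants. All mutant values were lower, though by little in library 1 and 3 (log2 change -0.12, adjusted p = 0.39).

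Eno1, the ubiquitous enolase, measured 795, 847 and 820 FPKM in controls and 562, 659 and 813 FPKM in mutants, and Pkm, pyruvate kinase, 896, 896 and 848.5 FPKM against 627, 725 and 871 FPKM. For both genes mutant library 3 fell among the controls while the other mutant libraries lay below them (adjusted p = 0.24 and 0.26). Eno1b, a near-identical copy of Eno1 listed apart in the table, measured 106, 30.5 and 27.1 FPKM in controls and 64.1, 88.0 and 119 FPKM in mutants, so the reads of the pair may be split between them. Gapdh, Pgk1, Pgam1, Tpi1, Aldoa, Pkm and Ldha also have processed copies in the mouse genome, and how reads shared with these were counted is not given in the sources here. Eno1 plus Eno1b averaged 875 ± 26.8 and 768 ± 154 FPKM (SD, n = 3, exact permutation p = 0.4, 2-sided).

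Eno2, the neuronal enolase, measured 2.08, 1.21 and 1.57 FPKM in controls and 2.52, 2.45 and 2.73 FPKM in mutants. It was the member of lower glycolysis that was higher in all mutant libraries (log2 change 0.46, SE 0.15, adjusted p = 0.14), at a level far under that of Eno1.

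At the end of the pathway, Ldha, the lactate dehydrogenase subunit that favours lactate production, measured 1510, 1626 and 1496 FPKM in controls and 1294.5, 1198 and 1241 FPKM in mutants. All mutant libraries were lower, by a log2 change of -0.31 (SE 0.08, 95% interval -0.49 to -0.13), and the adjusted p was 0.075. Ldhb, the other subunit, averaged 265 ± 17.4 FPKM in controls against 263.5 ± 12.6 FPKM, with overlap. Pdk1, a kinase that inhibits pyruvate dehydrogenase, measured 10.1, 10.7 and 11.8 FPKM in controls and 14.9, 11.3 and 11.5 FPKM in mutants. These groups overlapped too (adjusted p = 0.42).

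Summed over the 17 enzyme genes from hexokinase to lactate dehydrogenase, FPKM was 6692, 6958 and 6589.5 in controls and 5274, 5626.5 and 6364 in mutants. Each mutant sum was below each control, at 0.853 times the control mean, for which exact permutation (2-sided) returned p = 0.1, the least that 3 against 3 libraries allow. All genes summed were also lower, with 729525, 738697 and 676961 FPKM in controls and 640011, 645621 and 627190 FPKM in mutants, and globin genes alone gave 36582, 45849 and 23013 FPKM against 14719, 15285 and 19885 FPKM. As a percentage of all FPKM, the enzymes made up 0.917, 0.942 and 0.973% in controls and 0.824, 0.871 and 1.01% in mutants, where the groups overlapped (exact permutation p = 0.5). After removal of globin and small RNA genes and rescaling, the ratio was 0.935 (exact permutation p = 0.4).

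The 3 mutant libraries differed among themselves in an ordered way over these enzymes. Mutant library 1 was the lowest mutant for 12 of the 17 and mutant library 3 the highest for 13. Over all 12742 genes mutant library 1 was the lowest for 5101 and the highest for 5263, and mutant library 3 the highest for 4356 and the lowest for 5503. Over the 36 tested members, the difference between mutant libraries 3 and 1 ran with the GC content of the longest transcript, with r = 0.75 (Spearman's rho 0.65), and over 12663 tested genes with r = 0.53 (0.69). These correlations run across genes of the same pair of libraries. The 23 members higher in library 3 had a median GC content of 53.0% and the 13 lower ones 47.9%. GC content had a weaker relation to the group difference, with r = -0.16 (Spearman's rho -0.21) over the members and 0.17 (0.26) over all genes. Mutant library 1 was also among the shallowest.

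With each library corrected for GC content and transcript length, a fit added after seeing the data, 9 members were called, where 11.0% of all 12663 genes were, 5.35% higher and 5.65% lower. The 5 higher were Slc2a3, Pfkfb3, Ndrg1, Adm and Ankrd37, and the 4 lower were Gapdh (log2 change -0.46, adjusted p = 0.033), Pgk1 (-0.29, 0.021), Pkm (-0.32, 0.039) and Ldha (-0.29, 0.042). Over all 18 alternatives the adjusted p of Gapdh ran from 0.033 to 0.38, that of Pgk1 from 0.021 to 0.21, that of Pkm from 0.039 to 0.53 and that of Ldha from 0.042 to 0.28, each passing in 1 of them, and the change stayed negative in each.

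**Figure D4:**
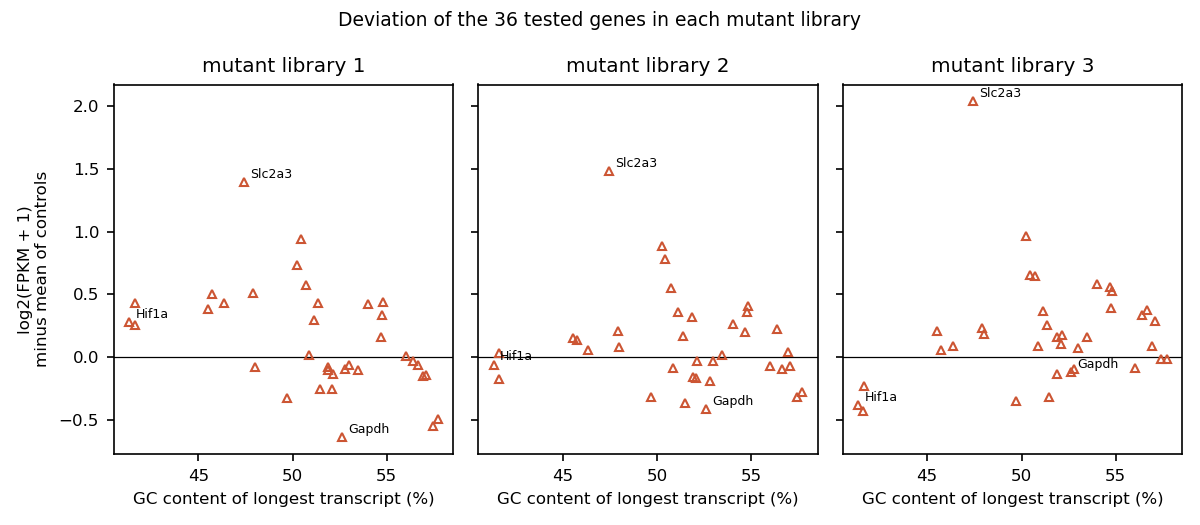
Deviation of the 36 tested genes in each mutant library from the mean of the controls, on the log2 scale of FPKM + 1, against GC content of the longest transcript in percent. The cloud slopes down in mutant library 1 and up in mutant library 3, while Slc2a3 is the highest point in all 3.

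Since FPKM is scaled by length, isoenzymes can be set beside each other within a library, and such shares do not depend on scaling of the library. They were not corrected for GC content, in which the genes of a pair can differ. P4ha2 has 52.1% GC and P4ha1 45.7%, and the share of P4ha2 was 31.7, 39.2 and 45.4% in mutant libraries 1 to 3. Of 10 pairs or trios, 5 had shares that did not overlap between groups. Each of these had an exact permutation p of 0.1 (2-sided), the smallest possible, and 0.2 after Benjamini-Hochberg adjustment over the 10. None could therefore pass the threshold in this design. Of all single genes tested, 29.5% did not overlap, and shares of other gene pairs were not counted. Slc2a1 made up 83.9, 82.9 and 80.8% of Slc2a1 plus Slc2a3 in controls and 69.5, 65.7 and 61.7% in mutants. Slc2a3 thus went from 17.4 ± 1.59% to 34.4 ± 3.92% of the pair (SD, n = 3), with GLUT1 still the larger share in all libraries. Other carriers of the family were left out of the pair, among them Slc2a4, which averaged 10.9 FPKM in controls and 14.2 FPKM in mutants.

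Ldha made up 85.4 ± 0.579% of the lactate dehydrogenase transcripts in controls and 82.5 ± 0.986% in mutants. Hk2 made up 37.6 ± 1.13% and 31.8 ± 3.77% of Hk1 plus Hk2, with mutant library 1 (36.1%) close to control library 1 (36.4%). Eno2 was a trace of Eno1 plus Eno2, 0.198 ± 0.0591% and 0.384 ± 0.0571%, and Egln3 rather more of its pair with Egln1, 14.4 ± 1.82% and 18.3 ± 1.31%. Eno1b and a further enolase gene, Eno3 (24.0 FPKM in controls and 27.3 FPKM in mutants), were left out of the enolase share. The shares of Pfkp, Aldoc, Pfkfb4, P4ha2 and Epas1 overlapped between the groups.

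**Figure D5:**
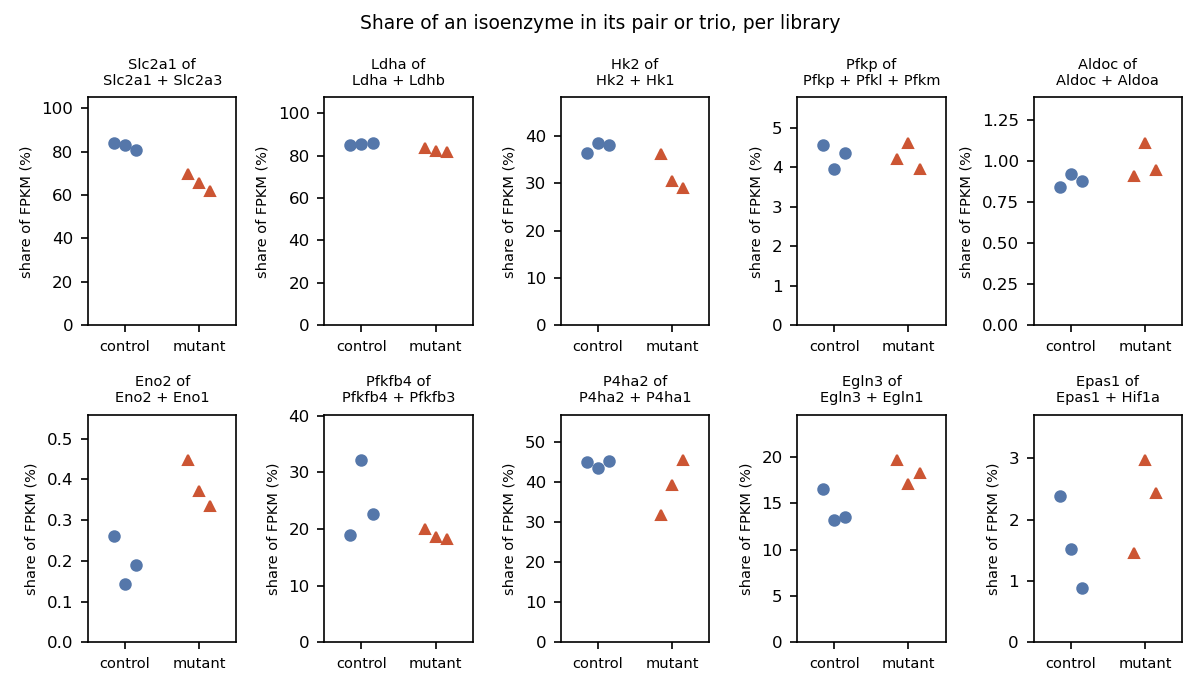
Share of an isoenzyme in the summed FPKM of its pair or trio, in percent on axes from 0, for each library (circles: control, triangles: mutant, libraries 1 to 3 from left to right). The share of Slc2a1 in Slc2a1 plus Slc2a3 is 80.8 to 83.9% in controls and 61.7 to 69.5% in mutants, the widest separation of the 10.

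Secreted factors behaved unequally. Vegfa, the growth factor for blood vessels and a standard readout of HIF activity, measured 19.7, 17.6 and 20.1 FPKM in controls and 19.4, 17.9 and 20.3 FPKM in mutants. The values overlapped throughout, and the log2 change of 0.01 had a 95% interval from -0.22 to 0.23 (adjusted p = 0.98). Adm, the vascular peptide adrenomedullin, measured 0.840, 0.986 and 1.20 FPKM in controls and 1.98, 1.94 and 2.13 FPKM in mutants. All mutant libraries were higher, at 2.00 times the control mean, and the log2 change of 0.59 (SE 0.13) came close to the threshold (adjusted p = 0.060). This gene lay near the filter on low values, and 4 of the 17 alternatives that tested it called it.

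Among the other genes that hypoxia induces, 1 of 7 tested was called, where 3.34% of all genes were. The groups did not overlap for 3 of the 7 (Ndrg1, Ankrd37 and Kdm3a), against 29.5% of all genes. Ndrg1, on chromosome 15 from 66929318 to 66969641, measured 3.88, 3.89 and 4.24 FPKM in controls and 8.60, 7.58 and 6.87 FPKM in mutants. The groups lay well apart, and the log2 change was 0.79 (SE 0.12, 95% interval 0.52 to 1.06, adjusted p = 0.020). As with Pfkfb3, the call was lost without any 1 of the control libraries or without mutant library 2 (adjusted p from 0.076 to 0.12) and held without mutant library 1 or 3. Its adjusted p ran from 0.0078 to 0.12 over the 18 alternatives.

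Ankrd37, an ankyrin repeat gene and direct HIF target, measured 11.8, 12.1 and 12.0 FPKM in controls and 14.9, 15.7 and 15.7 FPKM in mutants. Both groups were tight and did not overlap (log2 change 0.34, SE 0.08, adjusted p = 0.071). Its locus is shared with Ufsp2 in the table. Kdm3a, a histone demethylase that HIF induces, measured 25.0, 24.4 and 23.0 FPKM in controls and 31.7, 26.8 and 28.0 FPKM in mutants, without overlap (log2 change 0.25, adjusted p = 0.18).

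The remaining targets overlapped between the groups. Bnip3, a mitophagy receptor, measured 53.3, 61.0 and 58.1 FPKM in controls and 77.6, 58.8 and 48.8 FPKM in mutants, and Ero1l, an oxidase of protein folding, 12.0, 12.1 and 15.4 FPKM against 15.8, 11.5 and 9.45 FPKM. As for Hif1a, mutant library 1 was the highest and mutant library 3 the lowest, and these 3 genes had the lowest GC content of the members, 41.3 to 41.6%. P4ha1 and P4ha2, which encode collagen prolyl hydroxylases, averaged 21.8 ± 3.49 and 17.5 ± 2.92 FPKM in controls, against 25.9 ± 4.61 and 16.2 ± 2.28 FPKM in the mutant, with adjusted p-values of 0.43 and 0.72. Car9, a carbonic anhydrase that is a sensitive hypoxia marker, stayed at 0.852, 0.854 and 0.308 FPKM in controls and 1.76, 0.512 and 0.728 FPKM in mutants.

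Further genes of these pathways were taken from 8 lists of 143 genes, of which 126 could be tested. Limma called 6 of them, 4 higher and 2 lower, a share near the 3.34% of all genes (1.71% higher, 1.63% lower), and 37 had an unadjusted p under 0.05, where 23.0% of all genes did. The counts per list that follow rest on 0 or 1 called gene each and are a description of those genes, not of the lists. In the regulation of HIF, 0 of 13 passed, with 5 at an unadjusted p under 0.05. The nearest were Hif3a, an inhibitory HIF subunit, at 7.73 ± 1.32 FPKM in controls against 12.4 ± 1.12 FPKM (adjusted p = 0.054), and Rbx1, a subunit of the VHL ligase, at 293 ± 9.13 and 229.9 ± 10.9 FPKM (0.055).

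Of 32 other hypoxia targets 1 passed, and it was lower. Tfrc, the transferrin receptor, fell from 27.8 ± 1.65 to 14.0 ± 4.44 FPKM (log2 change -0.98, adjusted p = 0.043). It is strongly made by red cell precursors, and the summed red cell markers were lower in the mutant, as given for Slc2a1. Their part in its fall was not tested. The median log2 change of this list was 0.18, and the gene next in line was Plod1, a lysyl hydroxylase of collagen, at 17.0 ± 0.940 and 24.8 ± 3.02 FPKM (adjusted p = 0.056).

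Of 17 other genes of glycolysis and hexose transport 1 passed. Pgam2, the muscle phosphoglycerate mutase, rose 2.25-fold, from 6.54, 6.52 and 4.41 FPKM in controls to 14.2, 14.4 and 10.8 FPKM in mutants (log2 change 1.05, adjusted p = 0.028). Heart muscle markers also had higher sums, 156 to 204 FPKM in controls and 255 to 363 FPKM in mutants. Most of these sums came from Myl7, which was called. Tnnt2, Actc1 and Nppa were not called (adjusted p = 0.12, 0.90 and 0.81), and the groups overlapped for Actc1 and Nppa. Tnnt2 was higher in each mutant library than in any control, with means of 7.31 FPKM (control) and 16.8 FPKM (mutant). Myh6, too low for a test, measured 0.195, 0.156 and 0.0735 FPKM in controls and 0.249, 3.08 and 1.61 FPKM in mutants, also without overlap. The part of heart muscle in the rise of Pgam2 was not tested. The next gene was Slc2a10, a facilitative transporter of the same family, at 3.90 ± 0.296 and 5.81 ± 0.883 FPKM (adjusted p = 0.099).

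Where pyruvate enters the mitochondrion, 1 of 12 genes passed: Pdk2, a kinase that inhibits pyruvate dehydrogenase, rose from 16.1 ± 0.991 to 23.9 ± 2.53 FPKM (log2 change 0.54, adjusted p = 0.043). Its opponent Pdp2, a phosphatase that activates the enzyme, stood at 2.67 ± 0.525 and 1.66 ± 0.188 FPKM (adjusted p = 0.13). In the citric acid cycle 1 of 17 passed, Idh3a, a subunit of isocitrate dehydrogenase, which fell from 69.4 ± 1.68 to 50.2 ± 2.78 FPKM (log2 change -0.46, adjusted p = 0.034). Sdhb, a subunit of succinate dehydrogenase, stood at 548 ± 40.8 and 441 ± 26.2 FPKM (adjusted p = 0.10).

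In the pentose phosphate pathway 0 of 7 passed, and 2 had an unadjusted p under 0.05. They were Pgls, a lactonase of its oxidative arm, at 262 ± 3.30 and 212 ± 27.0 FPKM (adjusted p = 0.14), and Taldo1, the transaldolase, at 183 ± 12.9 and 149.7 ± 13.7 FPKM (0.14). Among 14 ligands and receptors of the VEGF and adrenomedullin systems 1 passed. Kdr, the main VEGF receptor of endothelium, rose from 11.3 ± 0.672 to 16.2 ± 0.763 FPKM (log2 change 0.49, adjusted p = 0.039), while its relative Flt1 stood at 2.61 ± 0.149 and 4.08 ± 0.316 FPKM (0.062). Summed FPKM of 6 endothelial markers was 105 to 122 in controls and 122.5 to 144.5 in mutants, and 0 of the 6 were called. The part of endothelial cell number in these values was not tested.

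Of 14 tested genes of the unfolded protein and ATF4 responses 1 passed, Ddit3, a transcription factor induced by such stress, which rose from 14.5 ± 1.81 to 22.2 ± 1.99 FPKM (log2 change 0.58, adjusted p = 0.047). Sdf2l1, a chaperone cofactor, stood at 59.7 ± 10.6 and 42.2 ± 2.12 FPKM (adjusted p = 0.090). Without control library 1, 2 or 3, or without mutant library 2, 0 of the 126 genes were called, against 14 without mutant library 1 and 3 without mutant library 3.

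Marker transcripts of several cell types were called between the groups beside these genes. Of 6 epithelial markers 5 were called lower (Epcam, Nkx2-1, Krt8, Krt18 and Sftpc), and 6 of 6 did not overlap. Summed FPKM of 7 mesenchymal markers, which include Col3a1, was 640 to 838 in controls and 978 to 1192 in mutants, with Pdgfra and Col3a1 called higher and Foxf1 called lower, so this list went both ways. Among red cell markers Hbb-bt and Hbb-y were called lower. Mesothelial markers, led by Upk3b, summed to 116 to 140 FPKM in controls and 140 to 149 FPKM in mutants. Stmn2, Cldn5 and Pf4 were the most abundant neuron, endothelial and platelet markers, and none of them was called. The part of these cell types in the differences of the glycolysis and hypoxia genes was not tested.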

How the data were processed

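RNA was extracted from dissected lungs and made into libraries by a SMARTer Ultra Low Input protocol for 75 bp paired-end reads, per the labels' protocols. This kit does not mark strand, so overlapping genes cannot be told apart by strand. TopHat, Bowtie2 and Cufflinks were used on mm10 (GRCm38), per the submitters' processing notes; no versions are given there. FPKM per gene, computed by the authors, are the deposited values, and 0.01 is the lowest. In mutant library 1, 3 genes carried a failure mark and were left out.

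Genes averaging 1 FPKM or more were kept, and on log2(FPKM + 1) limma 3.58.1 (R 4.3.3, intensity trend) compared 3 mutant with 3 control libraries. P-values are 2-sided and adjusted by the Benjamini-Hochberg method over 12742 genes, with 0.05 as the threshold. The fit was tested on simulated data. Sums and shares were compared by exact permutation. Relative depth was estimated from values up to 0.3 FPKM. The GC and length correction used loess (span 0.3) on GENCODE M21 transcripts. Sequences are from RefSeq (GRCm38.p6). Loci are those of the table, counted from 1, and a locus can hold several genes (Hk1, Pfkm, Pfkp, Tpi1, Pdk1 and Ankrd37 share theirs).

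The members and lists were chosen with earlier results of these data known. Named are all members, from each pathway list the called genes (at most 6) and, where fewer than 2 were called, the 2 with the smallest p, from each marker list the most abundant gene, and the genes behind counts of 5 or fewer.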

Additional observations from a re-analysis of the deposited data

How the results depend on the processing

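The settings tried were other pseudocounts (0.1 and 0.5), other filters, scalings and variance steps, a replicate block and leaving out each library, with a GC and length correction, the same with the block, and leaving out control library 3 and mutant library 1 together added after seeing the data. The sign of the change was the same in all alternatives for 22 of 36 members, and 26 of the 33 members not called were called in none. Against 3 members called, the count was 1 without a filter (Ankrd37), 6 after removal of globin and small RNA genes and rescaling (with Slc2a1, Adm and Ankrd37 added), 9 after the GC and length correction, 0 without control library 3 and mutant library 1, and 0 to 3 with 1 library left out. The rescaling shifted the median of all genes to a log2 change of 0.11 and that of the members to 0.18; without the 2 shallow libraries the latter was 0.14, and with 1 library left out it was 0.03 to 0.10. Genes called, 426 as reported, were 148 without a filter, 1014 rescaled (841 higher, 173 lower), 1393 after the GC and length correction, 55 without the 2 shallow libraries and 52 (without mutant library 2) to 795 (without mutant library 1) with 1 library left out. For the 6 genes called in the pathway lists the counts were 2, 14, 23, 0 and 0 to 14 in the same order, and 3 without the intensity trend. With 1 library left out, 5 to 8 isoenzyme shares did not overlap, with 8 without mutant library 1. This count could only stay at 5 or rise, because leaving out a library cannot make separate groups overlap. The summed enzyme ratio was 0.808 to 0.889 with 1 library left out. With the replicate block 52 genes, 1 member (Slc2a3, adjusted p = 0.022) and 1 pathway gene were called, and with the GC and length correction and the block 224, 2 (Slc2a3 and Pfkfb3, so that none of the 4 lower calls was kept) and 3. Same-numbered libraries did not deviate together (r = -0.09, -0.08 and -0.03), no library correlated best with its own number, and the numbers were not taken to pair the samples. Epas1, Car9 and Adm have values near 1 FPKM, and the precision that depth gives them is unknown.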
